A study of Homo sapiens with 4 samples.

Results

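LINC RNAs are transcripts named as long intergenic noncoding RNAs with a serial number. The genes described here carry a symbol of LINC followed by digits alone and reached 1 FPKM in 1 or more of the study's 4 libraries, where FPKM are counts scaled by exonic length and library total. By this rule, 310 of the 2244 LINC genes in the table of 61806 genes were taken. They are 13.8% of the LINC genes, while 29.3% of all genes passed the same level. Of the other LINC genes, 784 had 0 counts in every library. The members were chosen on their FPKM, so that a level of 1 FPKM in some library is part of the choice and not a result.

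Long intergenic noncoding RNAs are made by RNA polymerase II, and most are capped, spliced and polyadenylated like mRNAs. As a class they are present at lower levels than mRNAs, are often found in few tissues and are turned over early, in part by the nuclear exosome. Some act on the transcription of neighbouring genes, some bind proteins or miRNAs, a few are translated into small peptides, and for most of them no function is known.

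JJ012 is a human chondrosarcoma line and 143B is a human osteosarcoma line. Each was grown detached, in suspension, as an untreated control and with 1 mM melatonin, the hormone of the pineal gland, for 72 h, and poly(A) RNA of each condition was sequenced as 1 library, so that RNAs without a poly(A) tail were not sampled. The columns with the suffix T in the table were read as the melatonin libraries. With 1 library per condition there is no estimate of the spread between cultures and no test, so all differences compare libraries and not conditions. The libraries held 15889564 to 19218343 counts. Of the chondrocyte markers, SOX9, the transcription factor of cartilage, was between 6.16 and 15.48 FPKM in the 4 libraries, while COL2A1, ACAN, HAPLN1 and COL9A1, which encode the cartilage matrix and a part of its collagen fibrils, were at 0.11 FPKM or below in all of them, as was SOX6. COL11A2 was at 1.67 FPKM in the JJ012 control and 0.61 FPKM with melatonin, MATN3 at 0.91 and 0.33 FPKM and SOX5 at 0.71 and 0.2 FPKM, and the 9 chondrocyte genes summed to 18.43 and 7.35 FPKM in JJ012 and to 16.95 and 13.19 FPKM in 143B. Of the osteoblast markers, RUNX2 was between 2.59 and 4.28 FPKM, while SP7, IBSP and DMP1 were at 0.02 FPKM or below in 143B, and BGLAP was at 1.44 and 1.21 FPKM there. The most abundant osteoblast markers were found in the chondrosarcoma line. SPP1, which encodes osteopontin, was at 79.39 and 64.5 FPKM in JJ012 against 0.4 and 0.53 FPKM in 143B, and COL1A1, which encodes a chain of type I collagen, was at 10.92 FPKM in the JJ012 control, 0.77 FPKM with melatonin and 0.49 and 0.33 FPKM in 143B. The 8 osteoblast genes summed to 94.74 and 68.2 FPKM in JJ012 and to 6.97 and 5.07 FPKM in 143B. Among markers of other cell types, the summed FPKM of 5 blood cell genes were 14 in the JJ012 control and 6.37 after melatonin, mostly from CD3E and CD79A with PTPRC at 0.14 and 0.02 FPKM, and were 0.18 and 0.08 in 143B. The 3 endothelial genes summed to 2.23 and 0.93 FPKM in JJ012 and to 2.4 and 2.05 FPKM in 143B, and the 3 epithelial genes to 0.16 and 0.05 FPKM in JJ012 and to 1.4 and 0.83 FPKM in 143B, with HBB at 0 and CDH1 at 0.01 FPKM or below throughout. The part of these cell types in the results below was not tested.

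Not all members are intergenic in the annotation. GENCODE 29 types 254 of them as lincRNA, 20 as antisense and 16 as processed transcript, and 1, LINC02693, as protein-coding. The median exonic length was 2333 bases, between 190 and 33198 bases, against 5223 bases for protein-coding genes and 1921 bases for antisense RNA genes, which are the genes with a symbol ending in AS and a number. The span of 152 members overlapped no other gene of the table, 133 overlapped a gene on the opposite strand and 68 a gene on the same strand. In GENCODE 29, 235 members shared no exonic base with another gene. Such bases were shared on the opposite strand by 46 members, on the same strand by 16 and on both by 10, and 3 members had no model. How strand was treated in the counting is not given in the sources used here. Reads of a member and of an antisense partner may thus not have been told apart where bases are shared on the opposite strand. The median distance to the nearest protein-coding gene was 25334 bases, and 107 members lay within 10 kb of one, overlaps included. At the threshold, LINC02731 and LINC02802 were taken with a highest level of 1.0 FPKM and LINC02391 with 1.01 FPKM, while LINC00652, LINC01681 and LINC01935 were left out at 0.99 FPKM.

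RefSeq promoter windows of GRCh38.p14, from 250 bases before to 50 bases after the start of the gene, were at hand for 189 of the 310 members. The windows printed first are those of the 4 members that were higher with melatonin in JJ012 and whose window holds TGANTCA. N stands for any base. The pattern takes in TGAGTCA and TGACTCA, the letters bound by AP-1 (a dimer of FOS and JUN proteins that answers to growth and stress signals). It also takes in TGAATCA and TGATTCA, which differ from these in the middle base. Capitals mark the matches to the pattern, which reads the same on both strands. The windows are chr3:46423618-46423917 on the minus strand for LINC02009, chr18:14946017-14946316 on the plus strand for LINC01443, chr3:109177915-109178214 on the plus strand for LINC00488 and chr13:42812513-42812812 on the minus strand for LINC01050, whose RefSeq start lies inside the gene span of the table.
LINC02009: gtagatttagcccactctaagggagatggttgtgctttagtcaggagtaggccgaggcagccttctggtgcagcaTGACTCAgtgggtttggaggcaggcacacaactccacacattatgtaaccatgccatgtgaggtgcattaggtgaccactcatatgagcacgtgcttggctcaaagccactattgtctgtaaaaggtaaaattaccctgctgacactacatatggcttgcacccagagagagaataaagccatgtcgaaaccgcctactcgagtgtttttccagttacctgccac
LINC01443: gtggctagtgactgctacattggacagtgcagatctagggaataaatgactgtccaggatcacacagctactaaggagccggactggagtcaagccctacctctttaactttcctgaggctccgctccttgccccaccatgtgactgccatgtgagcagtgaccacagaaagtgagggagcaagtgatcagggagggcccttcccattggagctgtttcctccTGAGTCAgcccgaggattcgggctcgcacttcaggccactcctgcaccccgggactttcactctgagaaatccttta
LINC00488: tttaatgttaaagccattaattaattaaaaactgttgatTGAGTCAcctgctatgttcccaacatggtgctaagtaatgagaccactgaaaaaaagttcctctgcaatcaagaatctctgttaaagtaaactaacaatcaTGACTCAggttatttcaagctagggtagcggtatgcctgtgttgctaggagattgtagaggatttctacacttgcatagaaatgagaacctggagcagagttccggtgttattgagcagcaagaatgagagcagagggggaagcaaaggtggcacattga
LINC01050: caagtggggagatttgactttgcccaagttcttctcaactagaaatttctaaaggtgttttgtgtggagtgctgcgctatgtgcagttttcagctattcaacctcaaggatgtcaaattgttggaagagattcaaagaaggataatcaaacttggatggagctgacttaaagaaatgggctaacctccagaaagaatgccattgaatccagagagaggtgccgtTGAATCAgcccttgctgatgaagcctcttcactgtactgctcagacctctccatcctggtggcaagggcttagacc
The match starts 175 bases before the RefSeq gene start in LINC02009, 27 bases before it in LINC01443 and 26 bases before it in LINC01050. In LINC01050 the match reads TGAATCA, which is not among the AP-1 letters given above. The whole window of LINC02009 lies upstream of the gene span of the table, which is given below. LINC00488 has a pair of matches, which begin 211 and 110 bases before the start.

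Of 13 members with a window that were higher with melatonin in JJ012, 4 held TGANTCA (30.8%), against 11 of 60 that were lower (18.3%) and 7 of 91 in between (7.69%). These shares count every middle base of the pattern. Among the lower ones, LINC02725, whose window is not printed, held matches that begin 178 and 72 bases before the start. They read TGAATCA and TGACTCA. All 4 higher ones were JJ012-restricted, a class in which 7 of 33 windows held TGANTCA (21.2%). With 13 windows the share is uncertain, and a link of these letters to melatonin was not tested. The share with TGANTCA was 13.8% in all 189 members, 14.0% in 1290 LINC genes under 1 FPKM, 7.76% in the 27305 promoters of the table and 4.72% in 10124 protein-coding genes with 1 FPKM. The share in all members was thus close to that of the LINC genes below the level of choice. GGGCGG, the core of the GC box bound by SP1, was found on either strand in 7 of 33 windows of JJ012-restricted members and in 27 of 48 windows of shared members, classes that are set out below, and in 44.6% of all promoters. The median number of CG pairs per window was 5 in the former, 10 in the latter and 26 in the protein-coding genes. Of the other letters searched on both strands, TATAAA was in 11.6% of member windows and 11.9% of all windows, ACGTG, the core of the hypoxia response element, in 25.9% and 21.6%, and CCAAT in 42.9% and 35.7%. Among the 13 higher members the median was 2 CG pairs per window and 1 window held GGGCGG.

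A further window is shown because it serves a divergent gene pair described at the end. It is chr18:5237850-5238149 on the plus strand, the window of LINC00667, and the capitals mark the 170 bases, chr18:5237980-5238149, that are also in the window of LINC00526 on the minus strand.
LINC00667: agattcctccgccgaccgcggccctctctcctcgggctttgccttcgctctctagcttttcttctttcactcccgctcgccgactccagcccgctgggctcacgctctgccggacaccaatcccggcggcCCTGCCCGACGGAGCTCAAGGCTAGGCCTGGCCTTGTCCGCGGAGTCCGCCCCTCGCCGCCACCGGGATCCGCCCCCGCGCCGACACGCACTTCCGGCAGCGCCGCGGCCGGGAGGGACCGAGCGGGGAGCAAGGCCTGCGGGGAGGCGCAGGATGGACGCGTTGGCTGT
The shared bases hold 24 CG pairs, more than the median of whole windows over the table.

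LINC RNAs were more abundant in JJ012 than in 143B. In bulk RNA, fewer cells with an RNA and less of it per cell cannot be told apart. The JJ012 control held 245 members at 1 FPKM or more and melatonin-treated JJ012 held 197, against 93 and 95 in the control and melatonin-treated 143B libraries. Of all genes, 14477, 14119, 13212 and 13198 reached this level in the same order, so fewer of them also did so in 143B. The members summed to 932, 778, 320 and 294 FPKM in these 4 libraries, and took 0.316%, 0.286%, 0.121% and 0.115% of the counts. Without the 1 FPKM rule, all 2244 LINC genes took 0.375%, 0.325%, 0.147% and 0.138% of the counts, and 802, 566, 361 and 361 of them had more than 3 counts. Fewer LINC genes were thus counted in both 143B libraries than in either JJ012 library. The members' median level was 1.79 FPKM in the JJ012 control, 1.39 FPKM with melatonin, and 0.265 and 0.275 FPKM in 143B. Levels were low throughout. The median of each member's highest level was 2.37 FPKM, against 2.24 FPKM for antisense RNA genes and 8.82 FPKM for protein-coding genes chosen by the same rule, and 24 members reached 10 FPKM in some library.

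Both JJ012 libraries were above both 143B libraries for 222 members (71.6%), where 45.9% of all genes with 1 FPKM had this order. Both 143B libraries were above both JJ012 libraries for 47 members (15.2%), against 28.3% of all genes. The lines overlapped for the other 41. This order is in part set by the choice of members and is given as a description, since 196 members (63.2%) reached 1 FPKM in JJ012 libraries alone and 37 (11.9%) in 143B libraries alone, against 21.9% and 12.8% of all genes. Members were then placed in classes by the line in which they were found. JJ012-restricted members had 1 FPKM or more in both JJ012 libraries and at most 3 counts in each 143B library, 143B-restricted members the reverse, and shared members 1 FPKM or more in a library of each line. There were 67 JJ012-restricted members (21.6%), while 4.72% of all genes with 1 FPKM were in that class. In the antisense RNA genes, which have similar levels, the share was 5.58%, and in protein-coding genes 2.39%. The 7 143B-restricted members were 2.26% of the members, near the background of 2.8%. Shared members numbered 77 (24.8%), against 64.9% of all genes. The remaining 159 had levels in between. Among them and the restricted members, 93 had 0 counts in both 143B libraries and 7 had 0 counts in both JJ012 libraries.

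**Figure D1:**
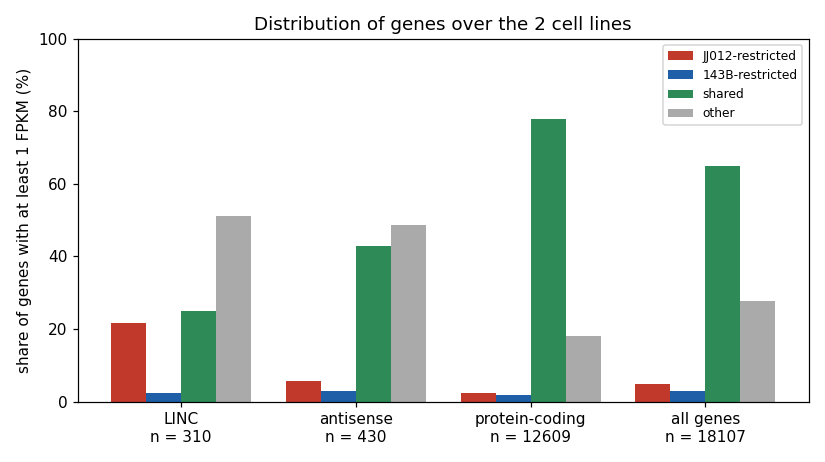
Share in percent (vertical axis) of genes in each class of presence in the 2 lines, for 310 LINC genes, 430 antisense RNA genes, 12609 protein-coding genes and all 18107 genes with 1 FPKM in some library. Each bar is 1 class in 1 gene set, and the JJ012-restricted bar is 21.6% in LINC genes and 2.39% to 5.58% in the other sets.

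Between the control libraries, 280 members reached 1 FPKM in either, and a log2 difference of (FPKM + 1) of at least 1 was counted. JJ012 was higher for 176 (62.9%), where 28.7% of all genes so compared were called in this direction. 143B was higher for 26 (9.29%), against 18.5% of all genes. The median log2 difference was 1.19 in the members, 0.61 in antisense RNA genes, 0.26 in protein-coding genes and 0.29 over all genes. With the differences centred on the median gene, 124 members were higher in JJ012 (44.3%, against 19.6% of all genes) and 35 in 143B (12.5%, against 24.4%). In TPM the counts were 147 (52.5%, against 21.1%) and 33 (11.8%, against 23.9%), so that under both scalings more of all genes were higher in 143B than in JJ012. The melatonin libraries gave 103 of the 176 as at least 1 higher in JJ012 and 18 of the 26 as at least 1 higher in 143B, and 0 of either group beyond 1 in the other direction. On the counts, scaled by library total (CPM), the exact 95% interval of the ratio excluded 1 for all 176 and all 26. Most calls over all genes also had such an interval, with 27.6% of all genes higher in JJ012 and 17.2% in 143B. These intervals, and all others here, cover counting error only.

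**Figure D2:**
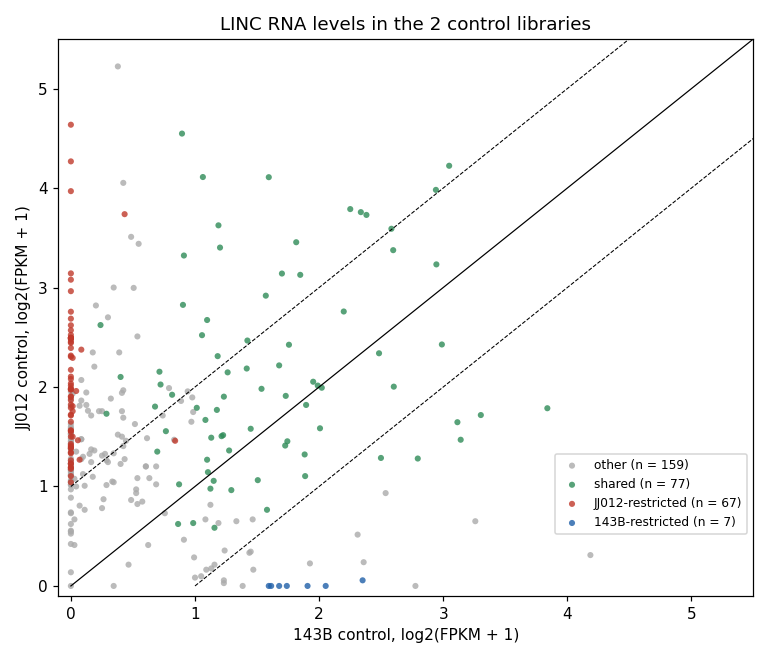
log2(FPKM + 1) of 310 LINC genes in the control library of 143B (horizontal axis) and of JJ012 (vertical axis), 1 point per gene, with colour for the class of presence. The solid line marks equal levels and the dashed lines a log2 difference of 1, beyond which 176 of the compared genes lie towards JJ012 and 26 towards 143B.

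The most abundant LINC RNA of the study, LINC02575, was nearly confined to JJ012. It lies on chromosome 21 (44485463 to 44495519, plus strand), 2374 bases from TSPEAR. It stood at 36.35 FPKM (4371 counts) in the JJ012 control, 40.55 FPKM with melatonin, and 0.3 and 0.37 FPKM in 143B. The CPM ratio of the controls was 120-fold (84.3 to 179). TSPEAR itself was at 8.9 and 3.44 FPKM in JJ012 and at 0.06 and 0.1 FPKM in 143B, so both genes were higher in JJ012 while the neighbour alone was lower with melatonin.

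Several abundant members had 0 counts in both 143B libraries, and their ratios are lower bounds set against 3 counts. LINC01667 on chromosome 21 was at 18.27 FPKM (1464 counts) in the JJ012 control and 8.42 FPKM with melatonin, at least 403-fold higher than in the 143B control. LINC02972 on chromosome 12 was at 14.66 and 22.71 FPKM, at least 177-fold higher in the control. LINC02474 on chromosome 1 was at 23.88 and 12.33 FPKM, at least 173-fold higher in the control. All of these were far above the limit of 3 counts in JJ012. LINC02009 on chromosome 3 was at 7.83 and 27.12 FPKM, at least 122-fold higher in the control library.

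Other members were high in JJ012 with some reads in 143B. LINC02340 on chromosome 13 was at 15.59 and 13.14 FPKM in JJ012 and 0.34 and 0.32 FPKM in 143B, a ratio of 45.3 (20.6 to 124) between controls. It lies 74 bases from RPL21, a ribosomal protein gene that was higher in 143B, at 225.97 against 86.41 FPKM in the controls. LINC02990 on chromosome 8 was at 12.34 and 2.16 FPKM in JJ012 and at 3 and 2 counts in 143B, a ratio of 35.6 (11.9 to 175). LINC02086 stood at 22.39 FPKM in the JJ012 control and 0.86 FPKM in the 143B control, a ratio of 25.9 (19.7 to 34.7).

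Fewer members were higher in 143B, and at lower levels. LINC00189 had the largest difference, with 17.2 and 15.65 FPKM (297 and 292 counts) in 143B and 0.24 and 0.11 FPKM (5 and 2 counts) in JJ012. It lies within BACH1, which encodes a heme-sensing repressor, on the same strand and shares exonic bases with it, so its counts are uncertain. BACH1 was at 34.16 and 31.7 FPKM in 143B and at 20.17 and 38.61 FPKM in JJ012, so the host did not show the same split. LINC02434 on chromosome 4 had 0 counts in JJ012 and 5.85 FPKM (135 counts) in the 143B control, at least 54.4-fold higher, and 0.96 FPKM with melatonin. LINC02392 on chromosome 12 had 2 and 1 counts in JJ012 and 185 and 231 counts in 143B, a control ratio of 112 (30.5 to 931).

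Both members of a neighbouring pair on chromosome 3 were higher in 143B. LINC00887 was at 8.57 and 5.25 FPKM in 143B and 0.57 and 0.04 FPKM in JJ012, and LINC02048, 8823 bases away on the other strand, was at 2.8 and 1.21 FPKM in 143B and 0.17 and 0.03 FPKM in JJ012. The control ratios were 15.1 (11.4 to 20.4) and 16.5 (8.07 to 39.1). Both were also lower with melatonin in 143B. LINC00622, at 13.31 and 10.91 FPKM in 143B and 2.45 and 1.5 FPKM in JJ012, LINC01215, at 4.13 and 3.06 FPKM against 0.18 and 0.02 FPKM, and LINC00624, at 3.96 and 2.14 FPKM against 0.43 and 0.79 FPKM, made up the rest of the 8 largest.

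Among the 10 members with the highest mean level, 5 were above 1 FPKM in every library. LINC00520, described as raised in several carcinomas, was at 17.69 and 13.84 FPKM in JJ012 and 7.27 and 5.2 FPKM in 143B, LINC00205 at 12.53 and 16.84 FPKM and 4.05 and 6.88 FPKM, and LINC00667 at 11.05 and 12.64 FPKM and 4.99 and 7.25 FPKM. LINC00922 was at 12.82 and 17.37 FPKM in JJ012 and 3.76 and 1.88 FPKM in 143B, and LINC02154 at 14.8 and 8.99 FPKM and 6.68 and 1.19 FPKM. All 5 were higher in the JJ012 than in the 143B control. The log2 differences were between 1.01 and 1.54.

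The JJ012-restricted members were spread unevenly over the chromosomes. Chromosome 13 held 15 members, of which 8 were JJ012-restricted, chromosome 21 held 16 with 6, and chromosome 18 held 10 with 5. Of all genes with 1 FPKM on these chromosomes, 11.7%, 10% and 7.26% were JJ012-restricted. Members were 4.62%, 6.96% and 3.3% of the genes with 1 FPKM there and 1.71% in the genome. Other chromosomes had a like part of their members in this class, with 3 of 8 on chromosome 8, 4 of 11 on chromosome 4 and 4 of 12 on chromosome 5. Of all genes there, 5.15%, 3.48% and 3.82% were JJ012-restricted. Chromosome 19, with the most protein-coding genes for its length, held 6 members and 0 JJ012-restricted ones. Chromosomes 20, 22 and X, with 11, 9 and 7 members, also held 0, while 11.0% of all genes on X were JJ012-restricted. The counts per chromosome are small, and their spread was not tested. The number of gene copies in the lines was not measured.

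With melatonin, LINC RNAs of JJ012 were more often lower than higher. The JJ012 control library of this comparison is the same as in the comparison of the lines. A log2 difference of (FPKM + 1) of at least 0.58 was counted, among genes that reached 1 FPKM in either library of the line. Of 273 members so compared in JJ012, 92 were lower (33.7%), where 18.6% of all genes were called lower, and 24 were higher (8.79%), where 19.6% of all genes were called higher. The median log2 difference was -0.26 in members and 0.01 over all genes. It was -0.15 in 352 antisense RNA genes, of which 87 were lower and 51 higher. Among genes whose higher library was between 1 and 5 FPKM, 32.9% of the members were lower and 7.11% higher, against 19.6% and 16.9% of all genes. In the members with 5 FPKM or more, 18 of 48 were lower (37.5%, against 17.7% of all genes at that level) and 8 were higher (16.7%, against 22.1%). The counting interval of the CPM ratio excluded 1 for 87 of the 92 and for all 24. Of all genes, 16.9% were called lower and 17.6% higher with such an interval. In TPM, where the median gene lay 0.23 higher in the melatonin library, 70 members were lower (25.6%, against 11.6% of all genes) and 42 higher (15.4%, against 29.4%), so that higher members were 37.5% of those called, against 20.7% in FPKM.

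**Figure D3:**
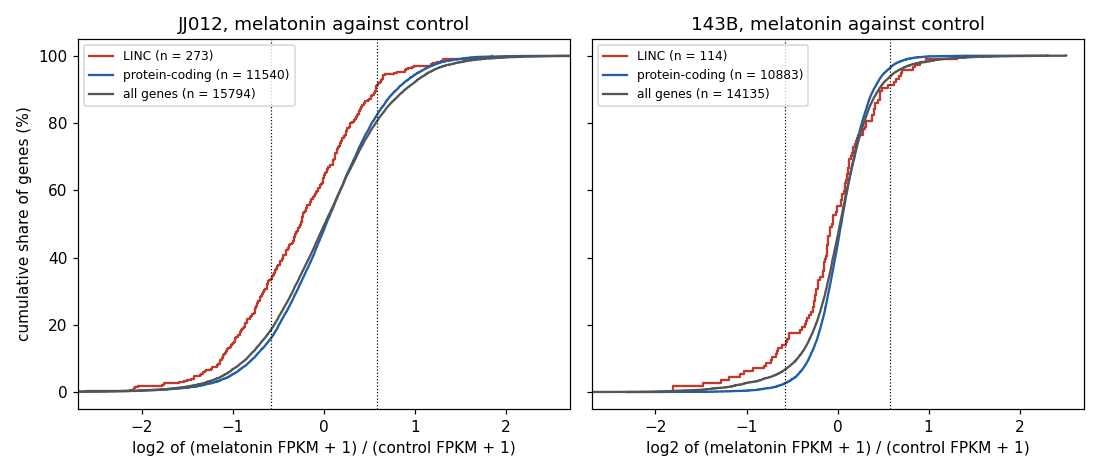
Cumulative share of genes in percent (vertical axis) by log2 difference of (FPKM + 1) between melatonin and control (horizontal axis) in JJ012, left, and 143B, right, for LINC genes, protein-coding genes and all genes. Dotted lines mark 0.58 in either direction. The LINC curve of JJ012 lies to the left of the other curves, with 33.7% of 273 genes at or beyond the lower line, and the curves of 143B are steeper.

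The difference in JJ012 also moved with exonic length. Of members under 2000 bases 39.3% were lower, of those from 2000 to under 5000 bases 37.7%, and of those with 5000 bases or more 14.5%. Over all genes these shares were 30.9%, 21.5% and 8.04%, and in protein-coding genes 41.7%, 21.2% and 7.91%. The shortest members thus differed little from protein-coding genes of like length, and the middle class lay above both sets. The higher share of long genes was 25% over all genes and 5.45% in the members. After removal of the running median over length, 74 members were lower (27.1%, against 16.4% of all genes) and 41 of the 273 higher (18.1% of all genes). The part of length in the members' difference was not tested.

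**Figure D4:**
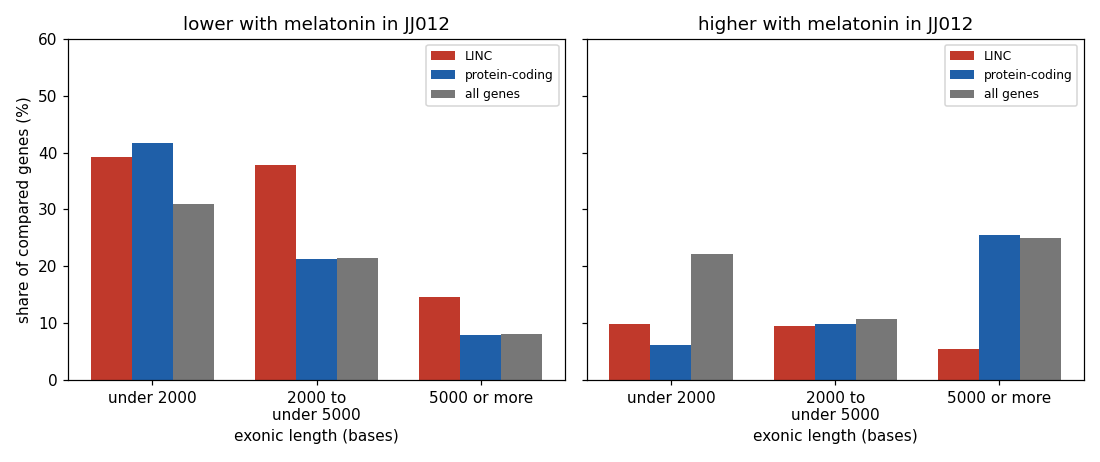
Share in percent (vertical axis) of compared genes that were lower, left, and higher, right, with melatonin in JJ012, in 3 classes of exonic length (horizontal axis), for LINC, protein-coding and all genes. Each bar is the share in 1 pair of libraries, and in LINC genes the lower share falls from 39.3% in the shortest to 14.5% in the longest class.

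The members were also divided by their counts in 143B, with all genes divided in the same way. Among 125 members with at most 3 counts in each 143B library, 45 were lower and 18 higher with melatonin in JJ012, with a median of -0.25. Among the other 148 members compared, 47 were lower and 6 higher, with a median of -0.26. In the former, 36% were lower and 14.4% higher, and of 1986 genes of the table with so few counts in 143B, 36.9% were lower and 22.6% higher, with a median of -0.26. The share of lower members was thus near that of all genes there. In the latter, 31.8% were lower and 4.05% higher, against 15.9% and 19.2% of 13808 genes, whose median was 0.03. Of the 24 higher members, 18 were thus members with at most 3 counts in each 143B library. That group held 125 of the 273 members compared. Over all genes, 449 of the 3102 higher ones had so few counts in 143B.

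Among members with at least 2 FPKM and 50 counts in the higher library, the 8 largest differences upwards in JJ012 were those of RNAs with at most 2 counts in each 143B library. Below 2 FPKM, LINC00472 had a log2 difference of 0.89 (208 and 594 counts), above the last of these 8, and held 259 and 386 counts in 143B. LINC02009 (ENSG00000283646), at chromosome 3, 46416524 to 46423591 on the minus strand, had 444 counts in the control and 1292 with melatonin, 7.83 and 27.12 FPKM, a log2 difference of 1.67 and a CPM ratio of 3.46 (3.11 to 3.87). It became the second most abundant LINC RNA of that library. Its nearest coding neighbour, CCRL2, a chemerin-binding receptor, was at 0.14 and 0.41 FPKM.

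LINC01443 (ENSG00000266554) and LINC01444 overlap on opposite strands of chromosome 18, from 14946267 to 14974215 and from 14969001 to 14970468, and were higher together. LINC01443 was at 5.44 FPKM (297 counts) in the control and 19.2 FPKM (881 counts) with melatonin, 3.53-fold (3.09 to 4.04). LINC01444 was at 4.63 FPKM (119 counts) and 12.29 FPKM (265 counts), 2.65-fold (2.13 to 3.32). Both had 0 counts in 143B. GENCODE 29 gives them no common exonic base, but their spans overlap and they are not independent cases. Their nearest coding neighbour, ANKRD30B, was at 0.26 and 1.08 FPKM.

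LINC01822 on chromosome 2 had the largest log2 difference, 1.85, from 0.54 FPKM (24 counts) to 4.55 FPKM (169 counts), 8.38-fold (5.45 to 13.4). LINC00488 (ENSG00000214381) was at 1.66 and 5.49 FPKM, 3.31-fold (2.67 to 4.14), and LINC01050 (ENSG00000271216) at 2.89 and 7.94 FPKM, 2.75-fold (2.18 to 3.48). LINC02700 was at 0.96 and 2.35 FPKM, 2.44-fold (1.77 to 3.42). These RNAs stood between 0 and 2 counts in 143B. LINC00958, described as promoting growth in several carcinomas, was at 3.9 FPKM (432 counts) and 8.3 FPKM (773 counts), 2.13-fold (1.89 to 2.4), and had 1 and 0 counts in 143B. It lies 16804 bases from TEAD1, which encodes a DNA-binding partner of YAP and was at 5.71 and 11.1 FPKM in JJ012.

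**Figure D5:**
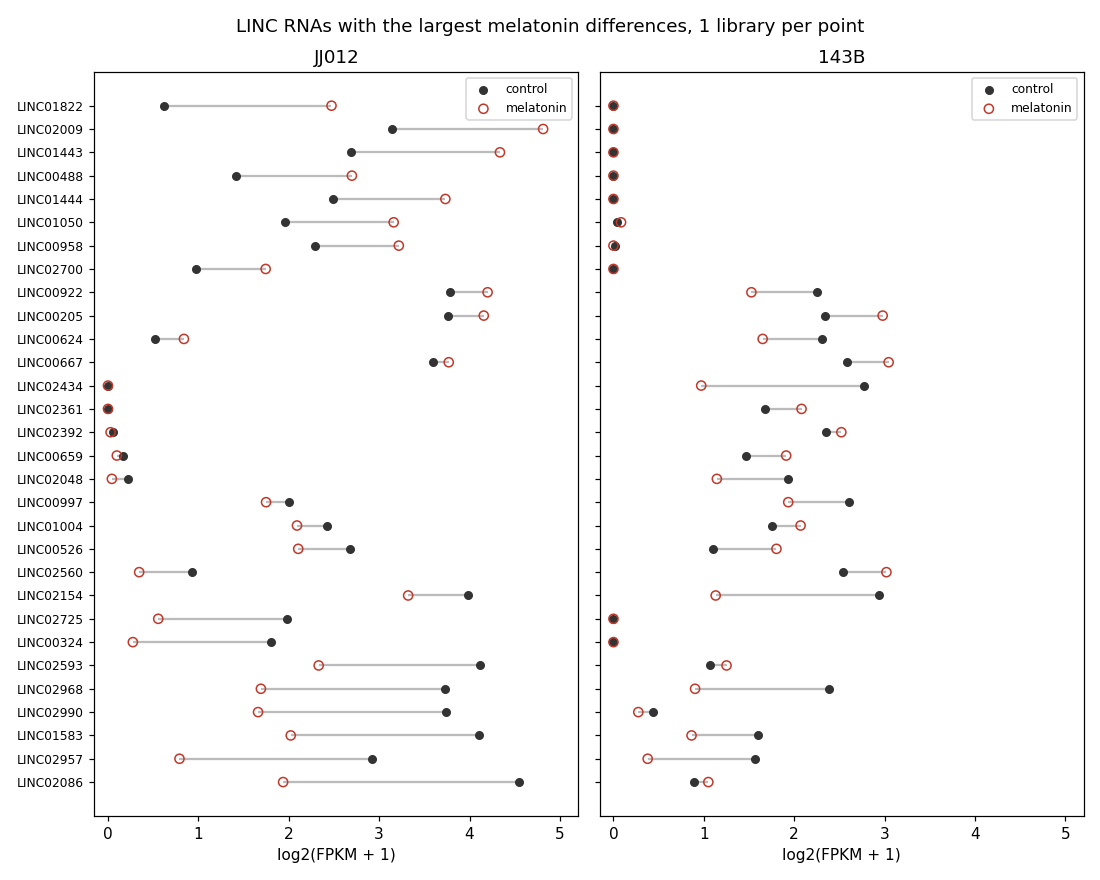
log2(FPKM + 1) (horizontal axis) in the control (filled) and melatonin (open) library of JJ012, left, and 143B, right, for the LINC genes with the largest melatonin differences in either line among those with 2 FPKM and 50 counts in the higher library, 1 library per point. Genes are ordered by the JJ012 difference, and the 8 at the top, from LINC01822 at 1.85 to LINC02700 at 0.77, are near 0 in 143B.

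Among the lower members of JJ012, LINC02086 had the largest log2 difference, -2.61. It lies on chromosome 17 (48646923 to 48707346, plus strand), 13351 bases from HOXB7, a gene of the HOXB cluster. Part of its exons lie opposite those of another gene. LINC02086 stood at 22.39 FPKM (1660 counts) in the control and 2.83 FPKM (176 counts) with melatonin, 7.92-fold lower (6.78 to 9.31), and was at 0.86 and 1.07 FPKM in 143B. HOXB7, a homeobox factor of axial patterning, was at 7.39 and 2.89 FPKM in JJ012 and 9.65 and 8.7 FPKM in 143B. Both were thus lower in the melatonin library of JJ012.

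LINC02593 on chromosome 1 showed a like pair with SAMD11, which lies 2907 bases away. LINC02593 was at 16.28 FPKM (1299 counts) and 4.03 FPKM (270 counts), 4.04-fold lower (3.54 to 4.62), and SAMD11 at 13.51 and 5.02 FPKM. In 143B they were at 1.09 and 1.38 FPKM and at 2.01 and 2.63 FPKM. LINC00324 was at 2.5 FPKM (101 counts) and 0.21 FPKM (7 counts), 12.1-fold lower (5.67 to 30.9), and LINC02725 at 2.95 and 0.47 FPKM, 6.32-fold lower (3.9 to 10.8). Both had 0 counts in 143B. LINC02990 was 5.7-fold lower (3.51 to 9.78).

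In 143B, melatonin differences of LINC RNAs were fewer. Of 114 members compared, 16 were lower (14.0%), where 6.65% of all genes were called lower, and 10 were higher (8.77%), where 6.09% of all genes were called higher. The median log2 difference was -0.06 in members and 0.03 over all genes. Of 262 antisense RNA genes, 12.6% were lower and 8.4% higher, and of all genes between 1 and 5 FPKM 9.56% and 8.25%, so the shares of the members lay closer to those of genes with similar levels. By exonic length, 20.9% of 43 members under 2000 bases were lower and 20.9% higher, against 19.3% and 16.3% of all genes. From 2000 to under 5000 bases, 12.8% of 47 members were lower and 0% higher, against 3.19% and 4.3%. With 5000 bases or more, 4.17% of 24 members were lower and 4.17% higher, against 2.06% and 1.69%. The counting interval of the CPM ratio excluded 1 for all 16 lower members and for 4 of the 10 higher ones, whose higher library held a median of 10 counts. Of all genes, 4.08% were called lower and 3.95% higher with such an interval.

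The lower members of 143B included abundant ones. LINC02154, on the X chromosome (13266041 to 13303452, minus strand), was at 6.68 FPKM (166 counts) and 1.19 FPKM (32 counts), 5.6-fold lower (3.82 to 8.46). LINC02434 was 6.08-fold lower (3.92 to 9.81), from 135 to 24 counts. LINC00922 was at 3.76 FPKM (139 counts) and 1.88 FPKM (75 counts), 2-fold lower (1.5 to 2.69), while in JJ012 it stood 1.35-fold higher (1.21 to 1.52), a log2 difference of 0.41 that did not reach 0.58. LINC00997 at 5.07 and 2.82 FPKM, LINC00624 at 3.96 and 2.14 FPKM and LINC02048 at 2.8 and 1.21 FPKM were also lower by more than 0.58.

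Higher with melatonin in 143B among members with at least 50 counts were LINC00526 and LINC00205. LINC00526 was at 1.14 FPKM (34 counts) and 2.49 FPKM (80 counts), 2.18-fold (1.44 to 3.36). LINC00205 on chromosome 21 was at 4.05 FPKM (491 counts) and 6.88 FPKM (902 counts), 1.7-fold (1.52 to 1.9), and in JJ012 at 12.53 and 16.84 FPKM, 1.34-fold (1.26 to 1.43). It starts 137 bases from POFUT2, a protein O-fucosyltransferase gene, which stood at 27.24 and 20.97 FPKM in 143B and 41.99 and 35.91 FPKM in JJ012. The RNA and its neighbour thus differed in opposite directions in both lines, by amounts under 0.58 on the log2 scale except for LINC00205 in 143B. The next in order, LINC02560, LINC00667, LINC00659, LINC02361, LINC01004 and LINC02392, had log2 differences of 0.17 to 0.48.

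The number of members called in both lines was small. Of 77 members compared in both, 4 were lower in both (5.19%, against 1.34% of 11822 genes compared in both) and 0 were higher in both (against 1.16% of genes). In opposite ways, 3 were lower in JJ012 and higher in 143B (3.90%, against 0.914% of genes) and 1 was higher in JJ012 and lower in 143B (1.30%, against 1.16% of genes). The counts are too small to read a difference from these shares. Each of the 4 that were lower in both held 48 counts or more in the control library of each line, while the 4 with opposite directions held 6 to 40 counts in the higher library of either line.

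The 4 that were lower in both were LINC01583, LINC02968, LINC02957 and LINC02154. LINC01583, on chromosome 15 (82088569 to 82097694, plus strand), was at 16.26 FPKM (848 counts) and 3.06 FPKM (134 counts) in JJ012 and at 2.02 FPKM (87 counts) and 0.82 FPKM (38 counts) in 143B, 5.32-fold (4.43 to 6.43) and 2.47-fold lower (1.67 to 3.72). LINC02968, on the X chromosome (1732584 to 1763212, plus strand), was at 12.27 FPKM (236 counts) and 2.23 FPKM (36 counts) in JJ012 and at 4.21 FPKM (67 counts) and 0.87 FPKM (15 counts) in 143B, 5.51-fold (3.87 to 8.05) and 4.83-fold lower (2.73 to 9.1). Its nearest coding gene, 89503 bases away, is ASMT, which encodes the last enzyme of melatonin synthesis and was at 0.23 FPKM in the JJ012 control and listed at 0 in the other 3 libraries.

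LINC02957, on chromosome 9, was at 6.56 FPKM (193 counts) and 0.73 FPKM (18 counts) in JJ012 and at 1.97 FPKM (48 counts) and 0.3 FPKM (8 counts) in 143B, 9.01-fold (5.55 to 15.5) and 6.48-fold lower (3.04 to 15.9). LINC02154 was 1.65-fold lower in JJ012 (1.4 to 1.94) and 5.6-fold in 143B. In TPM its JJ012 difference was -0.41 and did not reach 0.58. The intervals of all 4 excluded 1 in each line. None of the 4 spans overlaps another gene of the table.

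Members and their nearest protein-coding genes were compared where both had a value. Across 201 such pairs, which share the libraries and are not independent, the control difference between lines gave 0.28 by Pearson's and 0.24 by Spearman's correlation, the melatonin difference in JJ012 gave 0.12 and 0.06 over 177 pairs, and that of 143B gave 0.17 and 0.16 over 82. Of 64 lower members of JJ012, 10 had a neighbour that was lower, 11 one that was higher and 43 one in between, where 16.1% of all protein-coding genes were lower and 17.8% higher. Of 14 higher members, 9 had a neighbour that was higher and 1 one that was lower, against the same shares. LINC01443 and LINC01444 share a neighbour among such cases, and 13 of the 14 lay beyond 10 kb.

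Members lying close together did not always move alike. LINC00526 and LINC00667 start from overlapping windows on chromosome 18, printed above, and run in opposite directions. In JJ012, LINC00526 was at 5.38 FPKM (194 counts) and 3.3 FPKM (100 counts), a log2 difference of -0.57, and LINC00667 at 11.05 FPKM (2144 counts) and 12.64 FPKM (2060 counts), a difference of 0.18. In 143B both were higher, by 0.71 and 0.46. Their gene spans in the table overlap on opposite strands. The strand setting is not given, so reads from shared bases may not have been told apart. On chromosome 1, LINC02257 and LINC02474, whose spans overlap, were lower in JJ012 by log2 differences of -1.17 and -0.90, while LINC01705, 25861 bases further, was at 7 and 11.7 FPKM, a difference of 0.67. LINC01687 and LINC00308, which lie 98 bases apart on chromosome 21 in opposite directions and are both JJ012-restricted, had differences of -0.19 and 0.61.

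Members widely described in cancer were taken as a list by symbol or older symbol. Of 16 genes of the list compared in JJ012, 4 were higher and 6 were lower, and 0 of 6 were called in 143B. With so few genes these counts cannot be set apart from the shares over all genes, which were 19.6% higher and 18.6% lower in JJ012 and 6.09% and 6.65% in 143B. Higher were LINC01705, LINC00472, at 0.54 and 1.85 FPKM, LINC00707, at 0.59 and 1.5 FPKM, and NORAD, which was LINC00657 before and is no member by its present symbol, at 95.41 and 176.23 FPKM. NORAD binds PUMILIO proteins and was far above every member. Lower were LINC00324, LINC00460, at 10.39 and 5.99 FPKM, LINC01116, at 2.88 and 1.12 FPKM, LINC00839, at 1.77 and 0.79 FPKM, LINC01711, at 1.83 and 0.32 FPKM, and PURPL, formerly LINC01021, a p53-induced RNA, at 1.47 and 0.45 FPKM. The median was -0.28, close to that of all members. LINC00839 was at 7.82 and 7.12 FPKM in 143B, above both JJ012 libraries.

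Another list held 9 genes with a LINC symbol, old or new, whose RNA is described to encode a small protein. Of 7 compared in JJ012, 0 were higher and 2, LINC01116 and NBDY, which encodes a peptide of the mRNA decapping complex, were lower. NBDY was at 16.03 and 10.26 FPKM. In 143B 0 of 4 were called. Most of these genes carry new symbols and are no members by the rule. Subunits and cofactors of nuclear RNA decay, through which many noncoding RNAs are degraded, were compared as a list of their own, with 1 of 21 higher and 0 lower in JJ012, 1 of 22 higher and 0 lower in 143B, and medians of 0.20 and 0.00. Subunits of the Integrator complex, which ends transcription of many noncoding RNAs early, had 1 of 15 higher and 0 lower in each line, with medians of 0.21 and 0.10. Over all genes compared, 19.6% were higher and 18.6% lower in JJ012, and 6.09% and 6.65% in 143B. How these small lists differ from those shares was not tested.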

How the data were processed

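RNA of JJ012 and 143B cells, each untreated and with melatonin, was measured in 4 libraries. Per gene, the authors deposited raw whole-number counts, the FPKM computed from them, and the exonic length of each gene. Per the labels, the processing notes name cutadapt 1.9.1, HISAT2 2.2.1, HTSeq 0.6.1 and DESeq2, and hg38. The strand setting is not given in the sources used here. Totals were 15889564 to 19218343 counts.

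Log2 differences were computed from FPKM with a pseudocount of 1, which understates the change of low genes, over the whole table, among genes that reached 1 FPKM in either library compared. Thresholds were 0.58 for melatonin and 1 between lines. CPM ratios carry exact (Clopper-Pearson) 95% intervals for counting error, and ratios against 0 counts were set against 3 counts per library. There were no replicates, so no test was made.

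Members and lists were chosen with earlier results of these data known. The members named were the 10 with the highest mean FPKM, the 8 with the largest difference in each direction and comparison with at least 2 FPKM and 50 counts in the higher library, those called in both lines with at least 50 counts, the 3 on either side of 1 FPKM, and those in the lists. LINC02957, the genes of neighbouring pairs and the members with opposite directions were named after their values were seen. Lists covered cancer, peptide-coding, RNA decay, Integrator and cell type marker genes. Gene types came from GENCODE 29 and promoter windows from RefSeq (GRCh38.p14), matched by symbol.

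Alternatives were a pseudocount of 0.1, no filter, a filter of 5 FPKM or on the mean, TPM, TMM and size factors, centring on the median gene, thresholds of 1 and 2, calls whose interval excludes 1, members that overlap no gene, and the melatonin libraries for the lines. Removal of the length trend, lincRNA type alone and members with no shared exon were added after the data were seen. The computation of differences and intervals was tested on simulated counts with counting error alone. Changes were planted only in genes with many counts, so the simulation does not cover members with few counts. The classes, lengths, neighbours and promoter windows were not simulated. Python 3.11.15 with numpy 2.4.6, pandas 2.3.3, scipy 1.17.1 and matplotlib 3.10.9 were used. TMM factors came from edgeR 4.0.16 and size factors from DESeq2 1.42.0, in R 4.3.3.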

Additional observations from a re-analysis of the deposited data

Results flagged for a closer look

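Members whose log2 difference with melatonin passed 0.58 in opposite directions in the 2 lines were singled out for a closer look, and the difference between the lines was not tested. LINC01293 was higher in JJ012 by 0.65 (17 and 34 counts) and lower in 143B by a log2 difference of -1.28 (40 and 5 counts), and the counting intervals of both CPM ratios excluded 1, at 2.38-fold (1.29 to 4.54) and 8.64-fold (3.41 to 28.1). LINC02585 had -0.98 in JJ012 (13 and 4 counts) and 0.91 in 143B (2 and 7 counts). LINC02818 had -0.63 (35 and 17 counts) and 0.98 (1 and 8 counts). LINC02943 had -1.46 (13 and 1 counts) and 0.85 (1 and 6 counts). For LINC02585 and LINC02818 the intervals included 1 in both lines, and for LINC02943 in 143B.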

How the results depend on the processing

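Leaving out a replicate was not possible with 1 library per condition. No paired analysis was possible because each group holds 1 library. Counts of called members are given below in the order JJ012 melatonin higher and lower, 143B melatonin higher and lower, JJ012 line and 143B line higher, same way and opposite ways in both lines, and those not named stayed within 1.5 times their value. With a filter of 5 FPKM they were 8, 18, 1, 4, 37, 8, 1 and 0, and with thresholds of 1 and 2 they were 8, 39, 1, 7, 47, 7, 2 and 0. A pseudocount of 0.1 gave 47 higher in JJ012 and 19 in 143B with melatonin, and 7 in opposite ways. A mean of 1 FPKM gave 4 higher in 143B with melatonin, 112 higher in the JJ012 line and 2 in opposite ways. Calls whose interval excludes 1 left 4 higher in 143B and 1 in opposite ways. Members that overlap no gene gave 12 higher and 49 lower in JJ012, 8 lower in 143B, and 98 and 13 between lines. Fewer genes or calls enter by construction under these filters and thresholds. TPM gave 42 higher in JJ012, and removal of the length trend gave 41 and 7 in opposite ways, and the cause was not tested. Of 245 values of 39 single genes under other scalings and pseudocounts, 243 kept their side of the threshold, LINC00659 in 143B reached 0.61 with a pseudocount of 0.1, LINC02154 in JJ012 dropped to -0.41 in TPM, and 0 changed direction after having passed. Members with few counts set the limit, since 144 and 138 members had at most 3 counts in the control and melatonin library of 143B.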
